A study of Mus musculus with 34 samples.

Results

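Bin-2 cells that had regrown under nilotinib by day 21 were compared with Bin-2 cells at day 3 of the same treatment, when most cells were dead. Bin-2 is a pre-B acute lymphoblastic leukaemia (ALL) line from a BCR/ABL transgenic mouse of mixed genetic background, so every group carried the BCR/ABL transgene. The arrays were chosen by their titles: 3 arrays of the end of the nilotinib course and 3 of its midpoint, 6 of the 34 arrays of the series. The end cells had been kept with 50 nM nilotinib to day 21, when about 90% were viable and the culture grew again. The midpoint cells had been kept with 50 nM nilotinib to day 3, when 5 to 10% excluded Trypan blue. Levels from 3 arrays of Bin-2 cells at the start of the nilotinib course (day 0) and 3 at the start of the lonafarnib course served as a description of untreated cells. Other courses served to show where the changes differed. One was the 8093 line, a BCR/ABL pre-B ALL on an inbred C57Bl/6J background, with 20 nM nilotinib (2 end arrays, day 20, and 3 midpoint arrays, day 3). The other was Bin-2 with 0.25 µM of the farnesyltransferase inhibitor lonafarnib, a unit taken from the treatment protocol where the design text gives mM (3 end arrays, day 30, and 3 midpoint arrays, day 3). All cultures shared an irradiated layer of mouse embryonic fibroblasts, which was not replaced, and a medium with interleukin-3. Only cells that floated or sat loosely on that layer were harvested, and replicates were separate plates of 1 line, so the p-values measure the spread between plates and not between leukaemias.

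BCR/ABL is a fusion tyrosine kinase that signals through STAT5, the RAS and ERK pathway and PI3 kinase, and nilotinib binds and blocks its ABL kinase domain. Interleukin-3 supports growth of early blood cells of several lineages, among them mast cells and basophils, which store proteases, histamine and serotonin in granules and carry the high-affinity receptor for IgE. Macrophages and B-lineage cells both can present antigen on MHC class II molecules, whose genes depend on the coactivator CIITA.

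RNA was hybridised to whole-transcript mouse arrays, and the values are deposited log2 signals with no detection call. For scale, 90% of 1027 olfactory receptor genes had mean signals up to 4.29; a change from a midpoint mean below that level is given on the log2 scale only and may understate the change of RNA. Of 19938 genes, 282 (1.41%) passed an adjusted p of 0.05 between end and midpoint in limma's moderated test with Benjamini-Hochberg adjustment. Of these, 199 (0.998% of the genes tested) were higher at the end and 83 (0.416%) were lower. These shares are the background for each count of list members below. A change of at least 2-fold was reached by 110 of the called genes (0.552%), 108 higher at the end and 2 lower. The 3 end arrays lay wholly on one side of the 3 midpoint arrays for 261 of the 282 called genes and for 3264 of all genes. The median change over all genes was -0.03 on the log2 scale, and the spread of values within an array was alike in both groups (mean interquartile range 3.50 at the end and 3.45 at the midpoint).

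One array of each group stood apart in part of the values. End replicate 3 correlated at 0.988 and 0.990 with the other end arrays (Pearson's r across genes, which are not independent) and at 0.990, 0.990 and 0.992 with the midpoint arrays. Midpoint replicate 2 did not stand apart from its group in this way. It correlated at 0.991 and 0.994 with the other midpoint arrays, and midpoint replicate 1 at 0.991 and 0.993. End replicate 3 and midpoint replicate 2 were the lowest arrays of their groups in the macrophage markers described below. The number of calls depended on which array was left out. It grew without end replicate 3, to 431 genes called higher and 151 lower. In the fit without midpoint replicate 2, 97 were called higher and 37 lower. Without end replicate 1, 98 were called higher and 21 lower, and without end replicate 2, 93 and 34. Without midpoint replicate 3, 122 were called higher and 47 lower, and without midpoint replicate 1 the genes called lower numbered 50.

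Genes of mast cells and basophils were among the largest rises. Of 15 measured markers of these cells, 10 rose, beside 0.998% of all genes called higher, and none fell. Their median change was 2.25 on the log2 scale, against -0.03 over all genes. Cpa3, which encodes the mast cell granule protease carboxypeptidase A3, had log2 signals of 11.52, 11.66 and 11.25 in the end arrays, against 5.46, 5.50 and 6.42 in the midpoint arrays. The groups lay far apart, and the rise of 5.68 ± 0.26 (log2, SE, n = 3 each) was 51.4-fold (adjusted p = 3.03e-15, limma). At the start of the course Cpa3 had 6.36, 6.64 and 6.48, and at the start of the lonafarnib course its mean was 6.22. Midpoint replicate 3 thus lay among the untreated arrays and the other midpoint arrays lay below them. In bulk RNA, a change in the number of cells of a type and a change of RNA per cell cannot be told apart.

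Fcer1a and Ms4a2 encode the alpha and beta chains of the high-affinity IgE receptor. Fcer1a had log2 signals of 8.66, 9.28 and 8.41 in the end arrays, against 3.30, 3.82 and 4.25 in the midpoint arrays, a rise of 4.99 ± 0.35 (log2, adjusted p = 4.08e-11, limma). Ms4a2 had 7.07, 7.32 and 6.61 at the end, against 2.75, 3.36 and 3.32 at the midpoint, a rise of 3.85 ± 0.33. Both chains were thus high in all end arrays and low in all midpoint arrays. They were low at the start too, where Fcer1a lay between 3.05 and 3.69 and Ms4a2 between 2.69 and 3.00. Kit, the receptor for stem cell factor on which mast cells depend, had 8.90, 8.92 and 8.76 at the end, against 7.01, 7.22 and 7.37 at the midpoint (1.66 ± 0.18, adjusted p = 3.19e-07). Kit had 7.58 to 7.69 at the start of the nilotinib course and 7.37 to 7.77 at the start of the lonafarnib course, below every end array, with the lowest of these arrays level with midpoint replicate 3.

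Granule proteases made up most of the remaining markers that rose. The tryptase gene Tpsb2 had 8.28, 8.57 and 8.32 in the end arrays, against 4.97, 4.79 and 5.12 in the midpoint arrays, and rose 10.8-fold. The chymase gene Cma1 had 7.24, 7.28 and 6.73 at the end, against 3.29, 4.42 and 4.17 at the midpoint, and rose by 3.13 ± 0.24. Mcpt2, a chymase relative typical of mucosal mast cells, varied widely, with 5.71, 6.19 and 7.78 at the end, against 2.61, 2.80 and 3.77 at the midpoint (3.50 ± 0.53, adjusted p = 0.000142). End replicate 3, the lowest end array for the IgE receptor chains, was the highest for Mcpt2. Of the other called markers, named after their values were seen, the transcription factor gene Gata2 rose by 2.37 ± 0.24 and the chymase gene Mcpt4 by 2.25 ± 0.34. Hdc, whose enzyme makes histamine, rose by 0.88 ± 0.20 (adjusted p = 0.017), a call lost without end replicate 1 (adjusted p = 0.157), end replicate 2 or midpoint replicate 3. The 5 markers that did not pass were Mcpt1 (1.19, adjusted p = 0.277), the basophil protease gene Mcpt8 (-0.29), Tpsab1 (0.10), Prss34 (0.02) and the receptor gene Mrgprb1 (-0.60). Mrgprb1 was called lower after median centring and without end replicate 3. Tryptase and chymase genes have close paralogs, and probes may share signal among them.

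**Figure D1:**
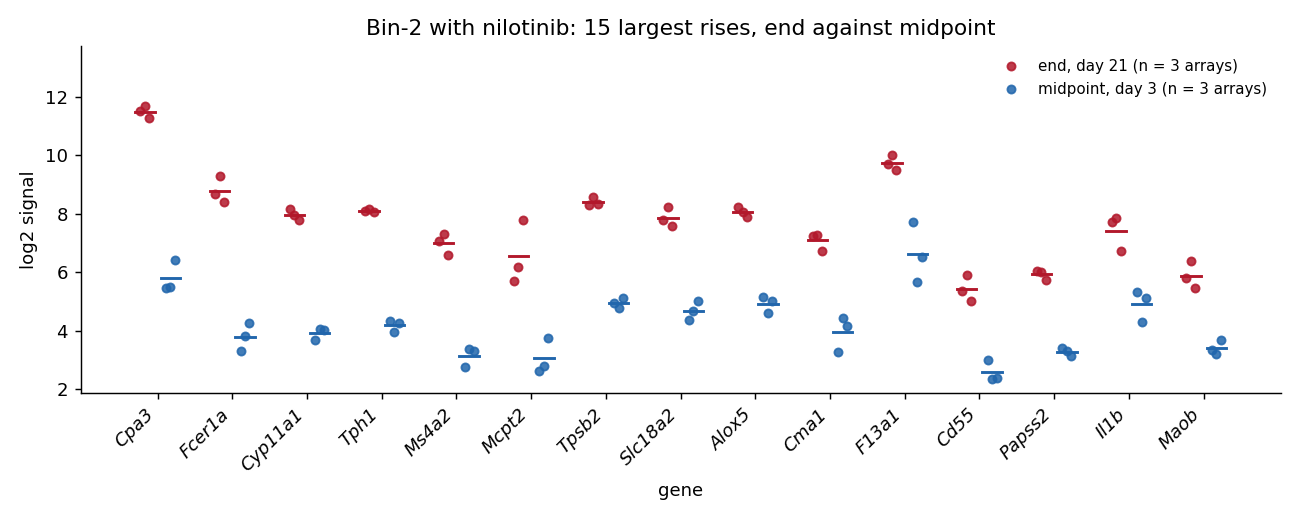
Log2 signals of the 15 genes with the largest rises, by gene on the x axis, with 3 end arrays (red, left) and 3 midpoint arrays (blue, right) for each and a bar at each mean. The genes were chosen among called genes whose arrays do not overlap, and their rises run from 5.68 (Cpa3) to 2.47 (Maob).

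The largest rises outside the marker list included genes of mediator synthesis and storage. Tph1, the enzyme that starts serotonin synthesis outside the brain, had log2 signals of 8.08, 8.17 and 8.05 in the end arrays, against 4.35, 3.95 and 4.28 in the midpoint arrays, and rose by 3.90 ± 0.22. Slc18a2, the transporter that loads monoamines into vesicles, had 7.78, 8.23 and 7.59 at the end, against 4.37, 4.69 and 5.02 at the midpoint (9.02-fold). Maob, which degrades monoamines, rose by 2.47 ± 0.25. These genes were named for the size of their rises and their non-overlapping arrays, and belong to no list.

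Alox5, the 5-lipoxygenase of leukotriene synthesis, had 8.24, 8.05 and 7.87 at the end, against 5.15, 4.61 and 5.01 at the midpoint, and rose 8.78-fold. Cyp11a1, which makes pregnenolone from cholesterol, had 8.16, 7.94 and 7.77 at the end, against 3.70, 4.05 and 4.02 at the midpoint (4.04 ± 0.25, adjusted p = 4.93e-12, limma). Papss2, which makes the sulfate donor used for heparin and other sulfated molecules, had 6.06, 6.02 and 5.73 at the end, against 3.41, 3.30 and 3.15 at the midpoint (2.65 ± 0.16). These 3 genes had start means close to their midpoint means, with 4.64 for Alox5, 3.62 for Cyp11a1 and 3.64 for Papss2. F13a1, the A chain of coagulation factor XIII, had 9.71, 10.02 and 9.49 at the end, against 7.73, 5.65 and 6.51 at the midpoint, and rose 8.61-fold, with its midpoint arrays spread more widely than its end arrays. Cd55, which protects cells from complement, rose by 2.85 ± 0.28.

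In the lists that hold receptors and surface proteins of early blood cells, up to 3 members rose, beside 0.998% of all genes called higher. Csf2rb2 and Csf2rb encode near-identical beta chains through which interleukin-3 and, for Csf2rb, related cytokines signal. Csf2rb2 had log2 signals of 9.20, 8.62 and 8.08 at the end, against 6.76, 6.66 and 6.78 at the midpoint (1.90 ± 0.20, adjusted p = 3.03e-07, limma). Csf2rb rose by 1.07 ± 0.16, a call lost in a fit to the 6 arrays alone (adjusted p = 0.0968). Probes may not separate these paralogs fully. Cd34, a surface protein of blood progenitors that mouse mast cells also carry, had 7.28, 7.64 and 7.42 at the end, against 5.67, 4.83 and 5.22 at the midpoint (2.21 ± 0.24). Itga2b, the alpha IIb integrin of megakaryocytes and early mast cells, had 6.91, 7.15 and 6.70 at the end, against 4.60, 5.06 and 5.27 at the midpoint (1.94 ± 0.23). Of 11 erythroid and megakaryocyte markers 2 rose, Itga2b and the transcription factor gene Gata1 (0.79 ± 0.18), which was lost without end replicate 2, midpoint replicate 2 (adjusted p = 0.13) or midpoint replicate 3. Of the 18 measured genes of BCR/ABL adaptors and the interleukin-3 receptor, 3 rose and none fell, the third being Src (0.64 ± 0.16, adjusted p = 0.0357). The Src call was lost in 5 of 6 fits that each left out 1 array (adjusted p up to 0.159, without end replicate 1), all but the fit without midpoint replicate 2. Abl1, whose kinase part lies in the fusion, had 9.35, 9.18 and 9.33 at the end, against 9.19, 9.28 and 9.30 at the midpoint. Bcr had 8.52, 7.91 and 7.83 at the end (mean 8.09), against 8.01, 8.15 and 8.16 at the midpoint (mean 8.10). For Bcr, end replicate 1 lay above every midpoint array and the other end arrays lay below them. Neither Abl1 nor Bcr passed the test.

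To show the sequence before the starts of genes that rose together, promoters were read from RefSeq (GRCm38.p6, 250 bases before the start of transcription, 5′ to 3′ on the strand of the gene). GATA factors are known to act in mast cells, so GATA preceded by A or T and followed by A or G was searched on both strands, and each match is printed in capitals as it reads on the strand of the gene. The regions shown are chr3:20242182-20242431, chr19:11623720-11623969 and chr1:173227230-173227479, all on the minus strand, chosen because these genes rose most among the markers.
Cpa3: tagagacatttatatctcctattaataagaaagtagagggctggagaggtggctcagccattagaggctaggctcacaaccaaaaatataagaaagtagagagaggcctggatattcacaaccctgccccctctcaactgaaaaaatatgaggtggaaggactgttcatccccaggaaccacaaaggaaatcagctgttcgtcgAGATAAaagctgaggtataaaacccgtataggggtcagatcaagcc
Ms4a2: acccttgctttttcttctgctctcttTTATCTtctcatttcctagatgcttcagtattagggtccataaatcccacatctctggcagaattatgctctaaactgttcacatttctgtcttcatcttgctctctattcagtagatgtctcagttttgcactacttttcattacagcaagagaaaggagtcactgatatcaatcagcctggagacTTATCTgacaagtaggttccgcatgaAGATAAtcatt
Fcer1a: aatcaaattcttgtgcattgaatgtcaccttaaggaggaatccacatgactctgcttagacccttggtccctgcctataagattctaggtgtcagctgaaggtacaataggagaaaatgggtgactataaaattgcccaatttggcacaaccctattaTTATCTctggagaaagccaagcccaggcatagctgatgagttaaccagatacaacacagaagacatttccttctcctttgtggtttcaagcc
Cpa3 held 1 match, Ms4a2 3 and Fcer1a 1. Of the other windows read, Tph1 held 1, Slc18a2 2 and Cma1 1, while Cyp11a1, Kit, Gata2 and the thrombin receptor gene F2r held none. Tph1, Cyp11a1, Kit and Gata2 have 2 listed starts each, of which only 1 was read. The other windows came from a choice of genes that rose, and not all of the largest rises were read. Of all 32851 promoters in the table, 26.5% held at least 1 match, so a match in any single window is common.

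**Figure D2:**
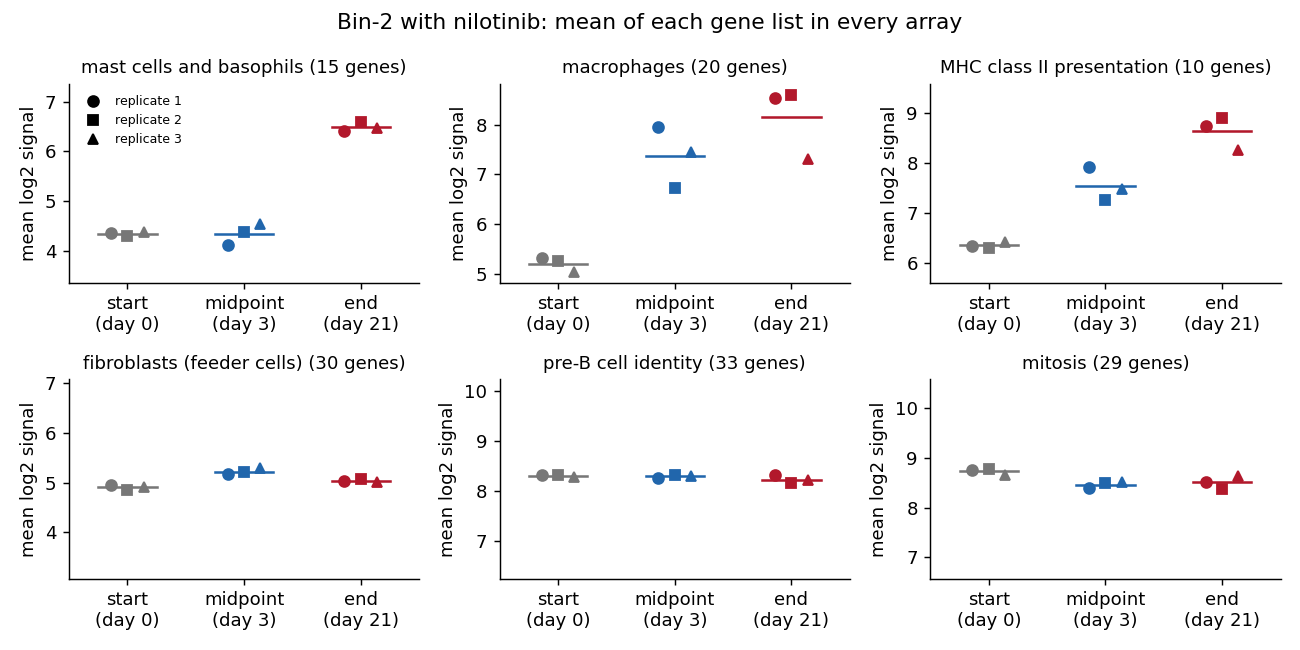
Mean log2 signal of 6 gene lists (y axis) in each of the 9 Bin-2 arrays at the start, midpoint and end of the nilotinib course (x axis), with a symbol for each replicate and a bar at the group mean. The mast cell and basophil list lies between 4.13 and 4.53 at the midpoint and between 6.41 and 6.59 at the end, while the macrophage values of end and midpoint overlap.

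Of 20 macrophage markers, 1 rose and none fell. Their mean log2 signal was 5.33, 5.26 and 5.04 at the start, 7.95, 6.72 and 7.45 at the midpoint and 8.54, 8.60 and 7.30 at the end. The end and midpoint arrays overlapped, since end replicate 3 lay below midpoint replicates 1 and 3. The gene that rose was Clec7a, a receptor for fungal glucans, with a rise of 1.54 ± 0.30 (adjusted p = 0.00409) that was lost without midpoint replicate 2 (adjusted p = 0.0703), and the median change of the list was 0.75. Without end replicate 3, 8 of the 20 markers were called higher. Lyz2, the lysozyme of myeloid cells, had 12.55, 12.61 and 11.22 at the end, against 12.09, 10.65 and 11.63 at the midpoint (0.67 ± 0.53, adjusted p = 0.758), and a start mean of 7.62.

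Genes of antigen presentation by MHC class II rose. Of 10 measured genes, 6 rose and none fell, beside 0.998% of all genes called higher, and the median change was 1.12. H2-Ea had log2 signals of 9.70, 10.23 and 9.49 in the end arrays, against 8.34, 6.83 and 7.27 in the midpoint arrays (2.33 ± 0.21, adjusted p = 1.5e-08, limma). H2-Aa had 9.82, 10.52 and 9.74 at the end, against 8.80, 6.67 and 8.21 at the midpoint (2.13 ± 0.31). Cd74, the invariant chain that guides class II molecules, had 10.60, 10.35 and 9.19 at the end, against 8.57, 7.69 and 8.04 at the midpoint (1.95 ± 0.28). All end arrays were above all midpoint arrays for these 3 genes, and midpoint replicate 2 was the lowest of its group for each. H2-Eb1 rose by 1.37 ± 0.19, and, named after their values were seen, Ciita by 1.01 ± 0.15 and H2-Ab1 by 1.22 ± 0.24. The call of H2-Ab1 was lost without end replicate 1 (adjusted p = 0.0549). In a fit to the 6 arrays alone, with fewer degrees of freedom and the spread of those arrays only, 1 of the 10 genes was called. For H2-Aa that spread was wide at the midpoint (SD 1.10, against 0.43 at the end). The list mean was 6.34, 6.29 and 6.42 at the start, 7.92, 7.25 and 7.47 at the midpoint and 8.74, 8.89 and 8.27 at the end, so end replicate 3 and midpoint replicate 2 were lowest here as in the macrophage list. The part of macrophage content in this rise was not tested.

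The Y box, CTGATTGG, is a known element of class II promoters. The windows chr17:34287824-34288073 (minus strand) and chr17:34305617-34305866 (plus strand) of GRCm38.p6 are shown because both genes rose, with the Y box in capitals.
H2-Aa: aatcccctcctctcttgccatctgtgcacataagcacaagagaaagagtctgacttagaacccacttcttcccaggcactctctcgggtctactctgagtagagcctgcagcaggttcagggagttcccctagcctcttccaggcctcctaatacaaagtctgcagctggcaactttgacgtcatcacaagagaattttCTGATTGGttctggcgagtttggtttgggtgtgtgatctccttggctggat
H2-Eb1: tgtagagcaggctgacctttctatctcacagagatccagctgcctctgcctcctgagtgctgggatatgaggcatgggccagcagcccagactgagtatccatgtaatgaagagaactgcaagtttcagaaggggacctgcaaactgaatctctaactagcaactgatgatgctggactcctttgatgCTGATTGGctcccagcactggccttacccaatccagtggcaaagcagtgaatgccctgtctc
Each window held the element once. Of all promoters in the table, searched on both strands, 3.83% held it.

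In the other myeloid lists, up to 3 members were called higher, beside 0.998% of all genes. Of 21 chemokines and inflammatory cytokines, 3 rose and none fell. Il1b, an inflammatory cytokine, had 7.72, 7.84 and 6.71 at the end, against 5.34, 4.29 and 5.13 at the midpoint (2.51 ± 0.31, adjusted p = 6.64e-06, limma). Ccl5 rose by 1.12 ± 0.17, a call lost in a fit to the 6 arrays alone (adjusted p = 0.135). Ccl22 rose by 0.75 ± 0.19, a call lost without end replicate 1, end replicate 2 (adjusted p = 0.245), midpoint replicate 2 or midpoint replicate 3. Of 10 dendritic cell markers, 1 rose: Itgax, the CD11c integrin, had 7.82, 7.61 and 7.24 at the end, against 6.21, 5.57 and 5.89 at the midpoint (1.67 ± 0.25). Of 15 neutrophil markers, the collagenase gene Mmp8 (1.79 ± 0.37) and the gelatinase gene Mmp9 (1.96 ± 0.46) rose, and both calls were lost without midpoint replicate 2 (adjusted p = 0.128 and 0.239), without end replicate 1 and without end replicate 2. Mmp9 was also lost without midpoint replicate 3. The mean log2 signal over the neutrophil list was 4.67, 4.81 and 4.75 at the end, against 4.56, 4.29 and 4.52 at the midpoint.

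Lgals3, a galectin made by macrophages and other cells, had log2 signals of 10.69, 10.18 and 8.80 at the end, against 9.25, 7.72 and 8.55 at the midpoint, and the groups overlapped. Its rise of 1.38 ± 0.35 passed the test (adjusted p = 0.0351, limma) but not without end replicate 1 (0.98, adjusted p = 0.404), end replicate 2, midpoint replicate 2 or midpoint replicate 3. It was the one called gene of 9 galectins. Cd63, a protein of lysosomes and secretory granules, was the one called gene of 25 lysosome and autophagy genes, with 7.65, 8.06 and 6.24 at the end, against 6.34, 4.68 and 5.61 at the midpoint (1.77 ± 0.43, adjusted p = 0.0298). Its call was lost without the same 4 arrays (adjusted p up to 0.309). Of 19 genes of the NRF2 response to oxidative stress, 4 rose and none fell, beside 0.998% of all genes called higher. They were the glutathione transferase gene Gstm1 (0.99), the glutathione synthesis gene Gclm (0.68), Nfe2l2, which encodes NRF2 itself (0.65), and the peroxidase gene Prdx1 (0.54). None of the 19 was called without end replicate 1, end replicate 2, midpoint replicate 2 or midpoint replicate 3, and 8 were called without end replicate 3.

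Few B-lineage genes changed. Of 33 measured pre-B cell genes, none rose and 1 fell, beside 0.998% of all genes called higher and 0.416% called lower. Their median change was -0.03, and the list mean was 8.32, 8.15 and 8.21 at the end, against 8.25, 8.31 and 8.30 at the midpoint. Mean signals above 5 were held by 29 of these genes at the end and 29 at the midpoint, among them the defining genes Pax5, Rag1 and Igll1. Pax5, which holds cells in the B lineage, had 9.60, 8.69 and 8.61 at the end, against 8.78, 8.79 and 8.93 at the midpoint, and only end replicate 1 stood out. Rag1, of the antigen receptor recombinase, had means of 9.30 and 9.20, Igll1, of the surrogate light chain, 11.50 and 11.53, and Il7r, the interleukin-7 receptor, 11.20 and 11.24 at the end and midpoint. The gene that fell was Spib, an ETS factor of B cells, with 6.20, 5.96 and 6.39 at the end, against 6.94, 6.80 and 6.90 at the midpoint (-0.69 ± 0.14, adjusted p = 0.00372). Without end replicate 2 its adjusted p was 0.0647. Rasgrp3, an activator of RAS proteins and the pre-B cell gene with the most negative change, had 5.58, 5.53 and 6.81 at the end, against 6.85, 7.06 and 6.88 at the midpoint (-0.96 ± 0.27, adjusted p = 0.0714), with end replicate 3 close to the midpoint arrays. Without end replicate 3, 2 genes of the list were called lower, Rasgrp3 among them (-1.37). Of 15 genes of later B cell stages, 1 rose, Slamf7 (0.95 ± 0.18), which did not pass without end replicate 2 (adjusted p = 0.0794) or midpoint replicate 3. Of 14 T and NK cell markers, 1 rose, Cd28 (1.09 ± 0.20), while the T cell receptor genes Cd3d, Cd3e and Cd3g had changes of 0.15, 0.00 and -0.19.

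No list of targets downstream of the kinase had more than 1 called gene. None of 16 STAT5 targets, 21 ERK feedback and immediate early genes, 14 BCL2 family genes and 15 genes of the MYC network passed the adjusted test in limma, while 4, 5, 2 and 1 of them had an unadjusted p below 0.05. The feedback inhibitor genes Cish and Socs2 changed by 0.08 ± 0.14 and 0.09 ± 0.11, the kinase gene Pim1 by -0.12 ± 0.15, and Myc by 0.15 ± 0.15 on the log2 scale. Pim1 and Myc were above every midpoint array in end replicate 1 (11.13 and 11.06) and below every midpoint array in the other end arrays. Bcl6, a repressor linked to survival under kinase inhibitors, had 6.32, 6.11 and 6.05 at the end, against 5.64, 5.82 and 5.54 at the midpoint (0.49 ± 0.19, adjusted p = 0.286). Bcl2l11, the death gene BIM, had means of 7.98 and 8.18 (-0.20 ± 0.12, adjusted p = 0.664) at the end and midpoint. Of 17 FOXO targets, 1 fell: Pik3ip1, an inhibitor of PI3 kinase, had 8.12, 8.14 and 8.24 at the end, against 8.85, 8.86 and 8.80 at the midpoint (-0.67 ± 0.12, adjusted p = 0.00185). Of 23 p53 targets, Trp53inp1 fell by 0.50 on the log2 scale (adjusted p = 0.00802), a call lost without end replicate 1 or midpoint replicate 2 (adjusted p = 0.0854).

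**Figure D3:**
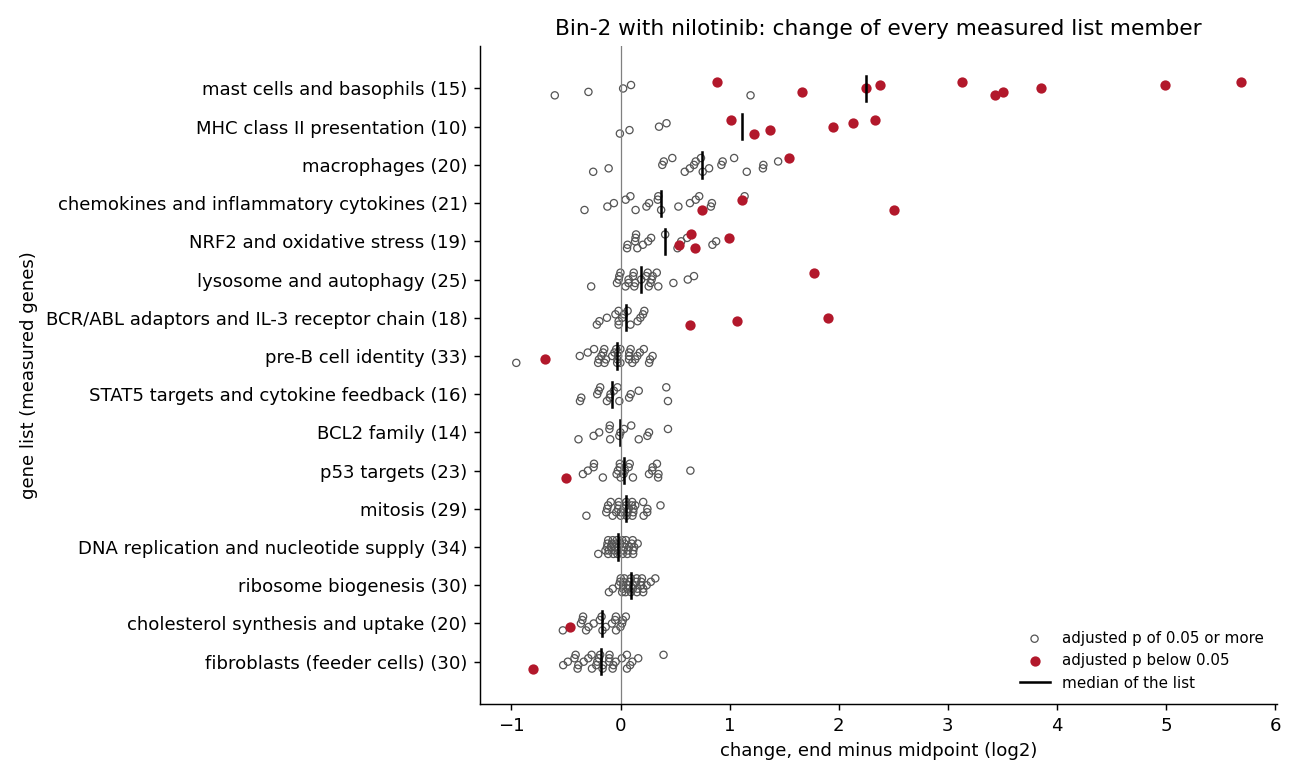
Change from midpoint to end (log2, x axis) of every measured member of 16 gene lists (rows, with the number of genes), filled where the adjusted p was below 0.05 and open otherwise, with a bar at each list's median. The mast cell and basophil list reaches 5.68 with a median of 2.25, whereas mitosis and DNA replication genes stay between -0.31 and 0.37.

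Proliferation genes also showed no call. None of 29 mitosis genes, 34 replication genes or 30 ribosome biogenesis genes passed the adjusted test in limma, with median changes of 0.05, -0.02 and 0.09, and 2, 0 and 1 of them had an unadjusted p below 0.05. Mki67, a marker of cycling cells, had 9.99, 9.50 and 9.85 at the end, against 9.56, 9.74 and 9.63 at the midpoint, and the groups overlapped. The cyclin genes Ccnd2 and Ccnd3 changed by -0.36 ± 0.11 (adjusted p = 0.106) and -0.10 ± 0.13, and Ccnd2 passed the test without end replicate 3 (-0.45). No member passed of 20 genes of the unfolded protein response, 28 of the ATF4 response, 26 of glycolysis and hypoxia, 24 of oxidative phosphorylation and 20 chromatin regulators (limma), and 0, 4, 5, 0 and 2 of them had an unadjusted p below 0.05. Of 20 cholesterol genes 1 fell, Insig1, and the list's median change was -0.17; of 15 fatty acid genes 1 rose, Acss2. Of 26 interferon-stimulated genes 1 fell, Xaf1. Insig1, a brake on cholesterol synthesis (-0.47, adjusted p up to 0.289), and Acss2, which makes acetyl-CoA (0.69, adjusted p up to 0.274), were called without end replicate 3 but in no other fit that left out 1 array. Xaf1, an inducer of cell death (-0.60), was lost without end replicate 1, end replicate 3, midpoint replicate 2 (adjusted p = 0.129) or midpoint replicate 3.

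Among 20 transporters of the ABC family, which can export drugs, 1 rose. Abcc1 had 8.72, 8.80 and 8.34 at the end, against 8.35, 7.69 and 8.08 at the midpoint (0.58 ± 0.15, adjusted p = 0.0408), and the call was lost without end replicate 1, end replicate 2, midpoint replicate 2 (adjusted p = 0.405) or midpoint replicate 3. Abcb1b, a P-glycoprotein gene, had 6.64, 6.46 and 6.84 at the end, against 6.36, 6.17 and 5.95 at the midpoint (0.49 ± 0.17, adjusted p = 0.214), and Abcg2 changed by 0.00 ± 0.17. Of 24 adhesion and homing genes, Cd34 rose and Itga4, the alpha 4 integrin, fell by 0.49 on the log2 scale (adjusted p = 0.00955). The Itga4 call was lost without end replicate 1, end replicate 2 (adjusted p = 0.0927) or midpoint replicate 3. Cxcr4, the receptor for the marrow chemokine CXCL12, had means of 11.53 and 11.84 at the end and midpoint (adjusted p = 0.673).

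Of 30 fibroblast markers, which the feeder layer would carry, 1 fell and none rose, and the median change was -0.18. The list mean was 4.95, 4.86 and 4.90 at the start, 5.17, 5.20 and 5.28 at the midpoint and 5.04, 5.07 and 5.02 at the end, so every midpoint array lay above every end array. Timp3, an inhibitor of matrix proteases, had 5.17, 4.67 and 4.57 at the end, against 5.82, 5.51 and 5.49 at the midpoint (-0.80 ± 0.15, adjusted p = 0.00352, limma). Col1a1, the main collagen of fibroblasts, had 6.27, 6.10 and 6.23 at the end, against 6.51, 6.73 and 6.80 at the midpoint (-0.48 ± 0.13, adjusted p = 0.0529), and passed without midpoint replicate 1, without dim genes or after median centring. Between 0 and 4 fibroblast genes were called lower over the alternatives, with 4 after each array was centred on its median and 0 in a fit to the 6 arrays alone.

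The falls were smaller than the rises. Only Ica1 and Tagap fell by at least 2-fold. Ica1, first known as an islet cell autoantigen, had log2 signals of 4.64, 5.13 and 5.49 at the end, against 6.23, 6.23 and 6.18 at the midpoint (-1.13 ± 0.16, adjusted p = 8.95e-05, limma). At the start it had 7.11, 7.27 and 7.34, so the values were ordered start, midpoint, end. The call of Ica1 was lost in 1 of 8 alternatives that kept these 6 arrays (adjusted p = 0.0533). Tagap, a GTPase-activating protein of lymphocytes, had 7.95, 8.28 and 8.64 at the end, against 9.20, 9.38 and 9.37 at the midpoint (-1.02 ± 0.16), and a start mean of 8.89. Its end arrays lay below both the midpoint arrays and this start mean. Nrg4, a ligand of the ERBB4 receptor, had 7.54, 7.38 and 7.75 at the end, against 8.33, 8.54 and 8.55 at the midpoint (-0.92 ± 0.13). Tead1, a factor of the Hippo pathway, had 4.74, 5.12 and 5.17 at the end, against 6.06, 5.66 and 6.14 at the midpoint (-0.94 ± 0.16), and a start mean of 6.46. Dkkl1 fell by 0.82 and Zfp827, a zinc finger gene, by 0.71 on the log2 scale, both with start means above their midpoint means.

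Among the called genes with non-overlapping arrays, small RNAs and predicted genes left out, the others of the 15 largest falls held less firmly. Armcx2 fell by 0.76 on the log2 scale and did not pass without end replicate 2 (adjusted p = 0.0852). Muc13, a membrane mucin, fell by 0.72 and Pcdh11x, a protocadherin, by 0.71. Muc13 was lost without end replicate 1 (adjusted p = 0.0637) or end replicate 2, Pcdh11x without end replicate 1 or midpoint replicate 2 (adjusted p = 0.0521), and the acyltransferase gene Zdhhc15 (-0.71) without end replicate 1 (adjusted p = 0.0873) or midpoint replicate 3. Nr1h4, the bile acid receptor FXR, fell by 0.75 and was lost without end replicate 1 (adjusted p = 0.221), end replicate 2, midpoint replicate 1 or midpoint replicate 2. Zfp980 and Olfr1204 were dim, with mean signals of 2.10 and 2.18 at the end, against 3.05 and 3.12 at the midpoint. Zfp980 was lost without end replicate 1, end replicate 2, midpoint replicate 2 (adjusted p = 0.383) or midpoint replicate 3, and Olfr1204 without midpoint replicate 2 (adjusted p = 0.125) or end replicate 1. Rnase12, a ribonuclease gene whose groups overlapped, had 7.03, 7.12 and 8.31 at the end, against 8.21, 8.37 and 8.25 at the midpoint (-0.79 ± 0.20, adjusted p = 0.0335), and was called without end replicate 3 but in no other fit that left out 1 array (adjusted p up to 0.387).

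**Figure D4:**
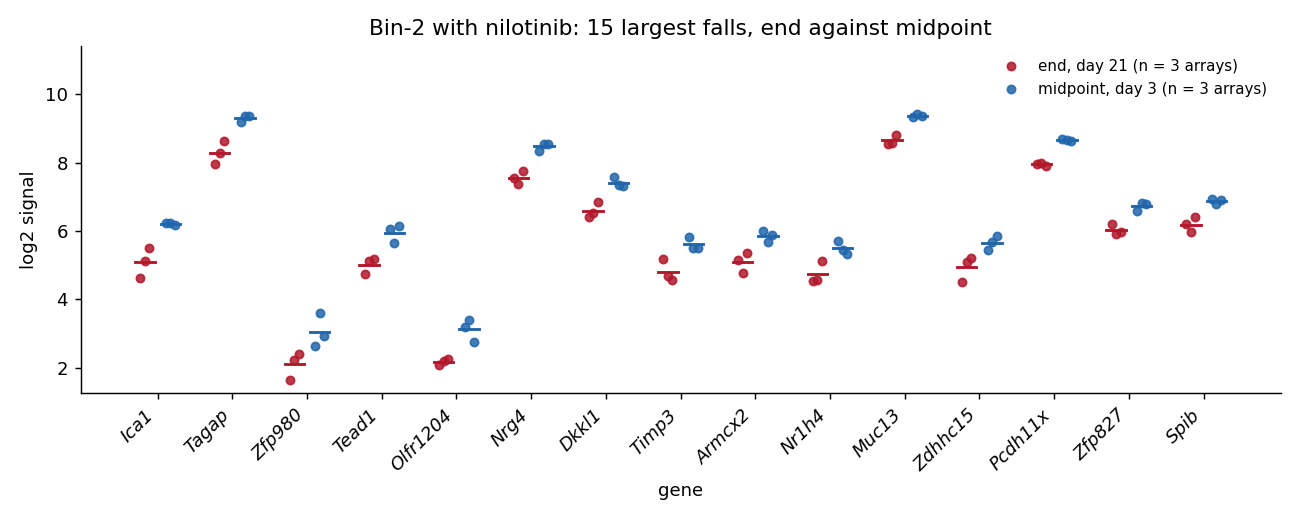
Log2 signals of the 15 largest falls among called genes with non-overlapping arrays, small RNAs and predicted genes left out, by gene on the x axis, with 3 end arrays (red, left) and 3 midpoint arrays (blue, right) for each and a bar at each mean. The falls run from 1.13 (Ica1) to 0.69 (Spib) on the log2 scale, smaller than every rise among the 15 largest.

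The change from midpoint to end in Bin-2 with nilotinib was then set against the same change in the 8093 line with nilotinib. The difference of the 2 changes passed for 7313 genes (36.7%), 2986 with the Bin-2 change higher and 4327 lower; after each array was centred on its median the numbers were 1586 and 5403. The median difference over all genes was 0.10, and -0.09 after centring. Dose and end day differed, the 8093 end had 2 arrays, and the 8093 midpoint arrays were compressed (interquartile range 3.03, against 3.55 at the 8093 end). The mean of H2-Aa was 10.03 at the Bin-2 end and 7.89 at the Bin-2 midpoint, but 5.27 at the 8093 end and 8.89 at the 8093 midpoint, a difference of 5.75 ± 0.46 between the changes (adjusted p = 5.83e-11, limma). Cd74 changed by 1.95 in Bin-2 and by -2.90 in 8093. Rag1 changed by 0.11 in Bin-2 and by -4.62 in 8093, and Dock9, an exchange factor for CDC42, by -0.09 and -4.83. Tek, the angiopoietin receptor, changed by -0.16 in Bin-2 and by 5.10 in 8093, and the embryonic globin gene Hbb-y by 0.27 and 5.47.

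The mast cell markers rose in 8093 too. Of the 15 markers, 12 rose and 1 fell between midpoint and end of 8093, with a median change of 1.92, beside 26.7% of all genes called higher there. Some started from high levels there: Cpa3 had a mean of 13.59 at the 8093 end and 12.62 at the 8093 midpoint, and Fcer1a 12.84 and 10.08. Cpa3 changed by 5.68 in Bin-2 and by 0.97 in 8093, and Fcer1a by 4.99 and 2.76 (adjusted p of the difference = 0.00123, limma). Ms4a2 changed by 3.85 ± 0.33 in Bin-2 and by 3.16 ± 0.36 in 8093, a difference of 0.69 ± 0.49 (adjusted p = 0.275). Cma1 changed by 3.13 and 2.96, a difference of 0.17 ± 0.36 (adjusted p = 0.738), which turned to -0.02 after median centring. Kit changed by 1.66 in Bin-2 and by 2.72 in 8093, and Hdc by 0.88 and 3.43, differences of -1.06 ± 0.27 (adjusted p = 0.00235) and -2.55 ± 0.30 (adjusted p = 9.81e-08). Over the 15 markers the Bin-2 change was higher for 5 and lower for 5, also after centring, beside 15.0% and 21.7% of all genes. Of the 15 largest rises of Bin-2, 13 rose in 8093, the others being Mcpt2 (-0.16) and Il1b (-0.77). The Bin-2 change was higher for 7 of the 15, and after centring it was higher for 7 and lower for 1. Because these genes were picked for a large Bin-2 change, the count with the higher Bin-2 change was favoured by that choice.

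The change was also set against that in Bin-2 with lonafarnib, where end days differed (day 21 and day 30). The difference passed for 3794 genes (19.0%), 1105 with the nilotinib change higher and 2689 lower; the numbers were 1321 and 1623 after quantile normalization and 733 and 3620 after median centring. The median difference was -0.03, and -0.15 after centring. The lonafarnib midpoint arrays were compressed as well (interquartile range 3.16, against 3.47 at the lonafarnib end). Of the 15 mast cell markers none rose with lonafarnib, beside 19.8% of all genes, and 1, Kit, fell (-2.42), and the nilotinib change was higher for 10, beside 5.54% of all genes, and lower for none (1 after centring). Cpa3 changed by 5.68 with nilotinib and by -0.09 with lonafarnib, a difference of 5.78 ± 0.36 (adjusted p = 3.25e-12, limma). Fcer1a (4.99 and 0.03), Tph1 (3.90 and -0.41), Cyp11a1 (4.04 and -0.06) and F13a1 (3.11 and -1.02) differed in the same direction. In the other direction, the complement gene C7 changed by -0.24 with nilotinib and by 4.55 with lonafarnib. Jchain, the joining chain of antibody polymers, had a mean of 8.09 at the nilotinib end and 8.76 at the nilotinib midpoint, but 10.99 at the lonafarnib end and 7.51 at the lonafarnib midpoint (-4.15 ± 0.16).

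**Figure D5:**
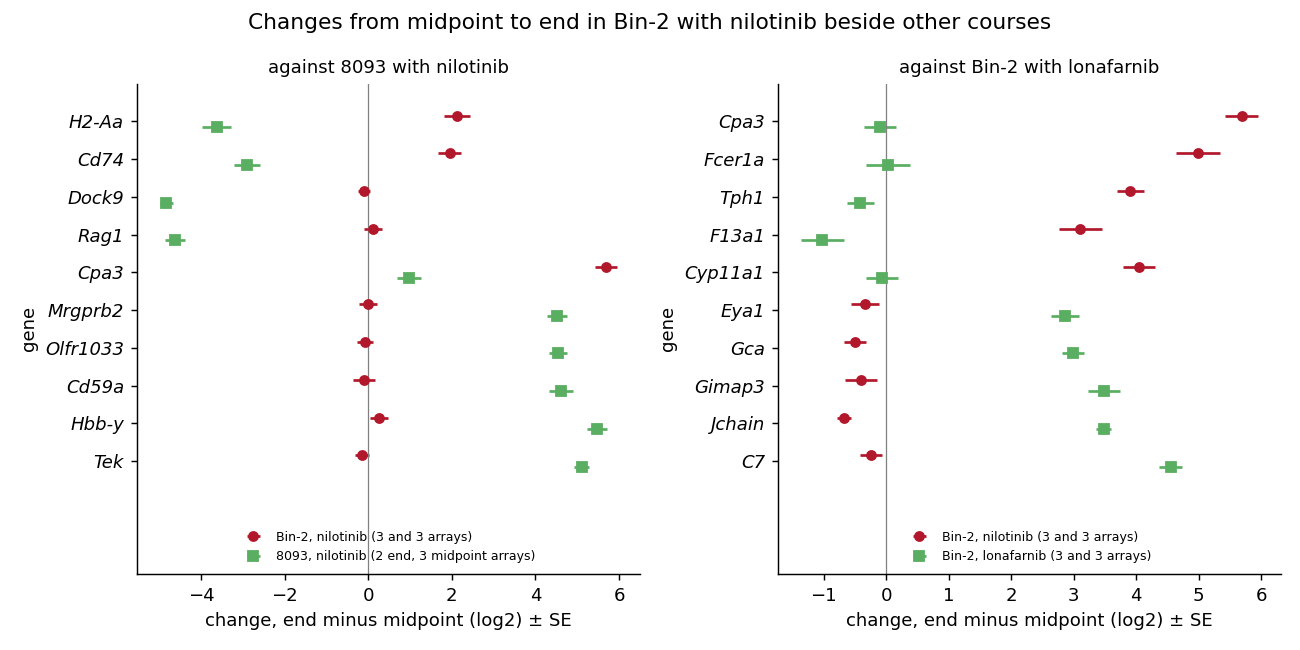
Change from midpoint to end (log2 ± SE, x axis) of the 10 genes with the largest differences (rows) in Bin-2 with nilotinib (red circles), beside 8093 with nilotinib (left panel, green squares) and Bin-2 with lonafarnib (right panel, green squares). Cpa3 rose by 5.68 in Bin-2 with nilotinib, beside 0.97 in 8093 and -0.09 with lonafarnib; in 8093 Kit, which is not drawn, rose by 2.72.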

How the data were processed

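RNA from Bin-2 and 8093 cells was hybridised to Affymetrix Mouse Gene 1.0 ST arrays, and the authors deposited 1 log2 signal per probeset and array. Partek is named in the submitters' processing notes; no source used here states the background correction or summary method. The values were used as deposited. Of 35557 probesets, 21789 have 1 gene symbol in the platform annotation, 1621 have several and 12147 are not listed there. The probeset with the highest mean stood for each of 19938 genes. A mean for each of 12 groups was fitted to all 34 arrays with limma 3.58.1 in R 4.3.3 (22 residual degrees of freedom, 6.70 prior), with two-sided p-values adjusted by Benjamini-Hochberg over all genes and called below 0.05. The fit was also run on simulated data with independent noise and, for each gene, the same spread in every group. That setting cannot show how the fit behaves where single arrays stand apart, as they did here. Replicate numbers are a label only: end and midpoint arrays of the same number had deviations correlated at 0.08, -0.18 and -0.04, so they were not paired.

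The genes and the 34 lists were chosen with earlier results of these data known. Named genes are the 15 largest rises and falls with non-overlapping arrays, up to 4 called members of a list (2 in the minority direction), 23 measured genes picked for their roles, and the 5 largest differences each way. Predicted genes and small RNAs were left out. The number of arrays limits the precision. Alternatives were the Bin-2 arrays or the compared arrays alone, another prior, quantile normalization, median centring, no dim genes, other probeset rules, a replicate block and leaving out each array.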

Additional observations from a re-analysis of the deposited data

Results flagged for a closer look

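The change from midpoint to end differed between courses by a test of the difference itself, for 7313 genes between Bin-2 and 8093 under nilotinib and for 3794 genes between nilotinib and lonafarnib in Bin-2 (limma, adjusted p below 0.05). Against 8093, the differences (Bin-2 change minus 8093 change, log2) were 5.75 for H2-Aa, 4.85 for Cd74, 4.74 for Dock9, 4.73 for Rag1 and 4.72 for Cpa3. In the other direction they were -4.54 for Mrgprb2, a receptor of mast cells, -4.61 for Olfr1033, -4.72 for the complement regulator Cd59a, -5.20 for Hbb-y and -5.26 for Tek. Mrgprb2 had means of 2.46 at the Bin-2 end and 2.47 at the Bin-2 midpoint, beside 7.66 at the 8093 end and 3.13 at the 8093 midpoint.

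Against lonafarnib, the differences (nilotinib change minus lonafarnib change, log2) were 5.78 for Cpa3, 4.97 for Fcer1a, 4.32 for Tph1, 4.13 for F13a1 and 4.10 for Cyp11a1. They were -3.21 for the developmental gene Eya1, -3.50 for the calcium-binding protein gene Gca, -3.89 for Gimap3, a GTPase gene of lymphocytes, -4.15 for Jchain and -4.79 for C7. Gimap3 had means of 4.62 at the nilotinib end and 5.03 at the nilotinib midpoint, beside 8.52 at the lonafarnib end and 5.03 at the lonafarnib midpoint.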

How the results depend on the processing

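The rise of mast cell and basophil markers kept 9 or 10 of 15 calls when any 1 array was left out and 10 in a fit to the 6 arrays alone. Without dim genes 8 were called, since Ms4a2 and Mcpt2 were left out as dim and not tested. Of the 62 called genes named by rule, 26 were called under every alternative that tested them. In the fit to the 6 arrays 32 lost the call. It has fewer degrees of freedom and takes the spread from those arrays alone. That fit called 82 genes higher, 14 lower and 62 changed at least 2-fold. Without dim genes, 71 genes reached 2-fold. Leaving out 1 array, 93 to 431 genes were called higher, 21 to 151 lower and 70 to 237 at least 2-fold; the lows of the higher and 2-fold counts came without end replicate 2, the low of the lower count without end replicate 1 and every high without end replicate 3. End and midpoint samples share only a number: with the replicate number as a block, 172 genes were called higher, 55 lower and 103 at least 2-fold, and Mrgprb1 was called lower (-0.60). For the difference from 8093, the genes with the higher Bin-2 change numbered 1586 with median centring, 1943 without dim genes and 4902 over every probeset, where 4996 probesets differed at least 2-fold; without 1 array they numbered 2313 to 3289. For the difference from lonafarnib, the genes with the higher nilotinib change numbered 733 with median centring and 1708 over every probeset, where 1654 probesets differed at least 2-fold, and 1623 genes had the lower nilotinib change with quantile normalization; without 1 array, the higher numbered 808 to 1192. The cause of these shifts was not tested. The 10 genes named for each difference kept call and direction under every alternative that tested them. No detection call came with the signals, so changes of dim genes have no measured floor.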

Other observations

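Several genes outside the lists, chosen after their values were seen, rose beside the mast cell markers. F2r, the thrombin receptor, had log2 signals of 7.12, 7.60 and 7.17 at the end, against 4.81, 4.68 and 5.06 at the midpoint (2.45 ± 0.17, adjusted p = 4.08e-11, limma). Rab27b, which takes part in granule release, rose by 1.31 ± 0.16, and Hs6st2, a sulfotransferase acting on heparan sulfate, by 1.21 ± 0.20. Ptger3, a prostaglandin E2 receptor, had 5.59, 5.44 and 5.55 at the end, against 4.48, 3.79 and 4.38 at the midpoint (1.31 ± 0.21). Lpcat2, an enzyme of platelet-activating factor synthesis, rose by 1.76 ± 0.27, and the receptor genes Cd200r3 and Cd200r4, which are close paralogs, by 1.85 ± 0.29 and 1.75 ± 0.27. These 7 genes were called in all 6 fits that each left out 1 array, but Cd200r4 was not in a fit to the 6 arrays alone (adjusted p = 0.166). Hpgds, Tbxas1, Pla2g7 and Hrh4 were called in 2 of those 6 fits, and Cd200r1, Ndst2 and Rasgrp4 in 3.

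Small nucleolar RNAs guide the modification of ribosomal and other RNA. Of 52 measured genes of this class, 6 were called lower at the end and none higher, beside 0.416% and 0.998% of all genes. Their median change was -0.21. Snora20 had 6.19, 6.34 and 6.80 at the end, against 7.32, 7.38 and 7.50 at the midpoint (-0.96 ± 0.16, adjusted p = 0.000402, limma), and Snord33 fell by 0.90 on the log2 scale. Snora52 was lost without end replicate 1 (adjusted p = 0.106), as were Snord49b, Snord57 and Snord15b. Snord49b and Snord57 were also lost without midpoint replicate 3, and Snord15b without midpoint replicate 2. Jchain fell by 0.68 on the log2 scale (adjusted p = 0.000709), with a mean of 8.09 at the end and 8.76 at the midpoint.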
